A study of Mus musculus with 9 samples.

Results

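The 188 cells described here are the astrocytes of the brainstem of mice that slept normally. They were chosen by name: the study's own list of brainstem cells gives each cell a barcode, a sleep group and a type, and every listed cell of the normal sleep group with the type astrocyte was taken, with no threshold on any gene. The list was used as far as it is held here, so the study's list may name further astrocytes. They make up 188 of the 1999 cells of that list used here, or 9.40% (95% exact Clopper-Pearson interval 8.16 to 10.8). The library that holds all 1999 listed barcodes has 3731 cells, and the whole table has 29571 cells in 9 libraries. Each library pools the brainstem, cortex or hypothalamus of 3 C57BL/6 mice aged 9 to 11 weeks (male C57BL/6J mice, by the study's methods) after normal sleep (NS), 12 h of sleep deprivation or recovery sleep, all dissected at ZT12, the end of the 12 h light phase. NS mice slept ad libitum and received no other treatment. The tissue was digested with papain, cleared of myelin with magnetic beads, strained, and loaded on 10x Chromium droplets (version 2 chemistry), which count the 3′ ends of transcripts by unique molecular identifiers (UMIs). The brainstem NS group is 1 library from 1 pool of mice, so no value below has a replicate check and no test was run. The other 8 libraries are not assigned to a region or a sleep group here and appear by number only.

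Astrocytes are star-shaped glia that touch synapses with fine processes and blood vessels with endfeet. They take up glutamate, GABA and potassium released by neurons, feed neurons with lipids and lactate, and are joined to each other by gap junctions. Astrocytes of different brain regions are known to differ in transporters and in patterning genes, and those of the hindbrain and diencephalon are known for the GABA transporter GAT-3, which Slc6a11 encodes.

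A level is the sum of a gene's UMIs in all cells of a type, scaled to CPM (counts per 1000000 UMIs of that type), with exact 95% Poisson intervals that cover counting error only, as do the Clopper-Pearson intervals of shares of cells. The astrocytes held 169977 UMIs, with a median of 771 per cell (range 496 to 2683, quartiles 644 and 1018) and a median of 410.0 detected genes (203 to 1369). At this depth, 0 UMIs of a gene over all 188 cells allow a level of up to 17.6 CPM, and 0 of 188 cells allow a share of cells with a UMI of up to 1.60%, which is no limit on the share of cells that express the gene. Mitochondrial genes took 12.1% of their UMIs and hemoglobin genes 0.598%. The other 1811 listed cells held 2079208 UMIs, and the median depth of other types of 20000 or more UMIs ran from 718 in glutamatergic neurons to 2205 in the hemoglobin-expressing vascular cells (HbVC). Of the 188 barcodes, 8 also occur in another library, and leaving those cells out changed none of the 189 ratios of list genes given below by more than the counting interval. Over the whole table, library totals ran from 1522766 to 5488950 UMIs, and the brainstem NS library held 4446038, of which 6.79% were hemoglobin transcripts.

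The levels of 12 astrocyte markers were read as a description of the label. The study named its cell types from known markers, so these levels are no independent check of it. All 12 markers were higher in the listed astrocytes than in the other listed cells, with a median log2 ratio of 5.33. Their UMIs summed to 20120.4 CPM against 493 CPM. Every cell held from 3 to 53 of these UMIs (median 16), and a cell showed from 2 to 12 of the 12 markers (median 8). In a clustering of all 29571 cells, 167 of the 188 lay in a cluster led by Agt, Itih3 and Slc6a11, 9 in an astrocyte-like cluster led by Htra1, and 8 in an astrocyte-like cluster whose leading genes also include the endothelial gene Cldn5 and the pericyte gene Vtn. The remaining 4 lay in microglia-like, smooth-muscle-like and ependymocyte-like clusters. The types on the list come from clusters of the same cells, so each contrast with other listed cells below is a description of the type.

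The stretch of 250 bases before the RefSeq start of the 3 genes that mark the type is shown here because these genes are read together in the same cells (GRCm38.p6, 5′ to 3′ on the gene's strand). Capitals mark TTGGC, the core of the sites that nuclear factor I proteins bind, and TATAAA, the TATA box, each searched on both strands. Aldoc has another start, whose window is left out here and holds neither motif. The windows are chr11:78322823-78323072 on the plus strand for Aldoc, chr8:124569707-124569956 on the minus strand for Agt and chr6:114130991-114131240 on the plus strand for Slc6a11.
Aldoc: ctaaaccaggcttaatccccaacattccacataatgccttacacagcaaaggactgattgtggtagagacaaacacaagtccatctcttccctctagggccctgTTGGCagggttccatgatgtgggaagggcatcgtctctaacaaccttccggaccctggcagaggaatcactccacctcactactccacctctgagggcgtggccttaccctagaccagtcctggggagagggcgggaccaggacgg
Agt: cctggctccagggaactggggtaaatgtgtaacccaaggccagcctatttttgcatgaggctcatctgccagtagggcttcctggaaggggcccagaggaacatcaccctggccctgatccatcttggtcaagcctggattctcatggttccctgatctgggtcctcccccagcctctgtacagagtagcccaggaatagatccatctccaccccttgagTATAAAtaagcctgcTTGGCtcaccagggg
Slc6a11: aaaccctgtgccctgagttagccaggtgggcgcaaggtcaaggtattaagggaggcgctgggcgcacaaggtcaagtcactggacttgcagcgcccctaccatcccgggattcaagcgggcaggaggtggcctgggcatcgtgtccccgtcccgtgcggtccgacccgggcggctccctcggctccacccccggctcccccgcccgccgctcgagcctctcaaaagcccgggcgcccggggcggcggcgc
Aldoc holds TTGGC at -146, counted from the base before the start as -1 to the first base of the match, and no TATAAA. The Agt window has TATAAA at -30 and TTGGC at -15. Neither motif occurs in the Slc6a11 window, where G and C make up 71.2% of the bases against 55.2% in Aldoc, 55.6% in Agt and a median of 52.4% over all promoter windows of the table. TTGGC occurs in 13637 of 32851 windows (41.5%) and in 13 of the 23 windows (56.5%) of the most astrocyte-restricted genes described below, 19 of which were matched. TATAAA occurs in 12.4% of all windows and 8.70% of those 23, and the E-box CANNTG in 66.2% and 78.3%. A match of letters is a description and not a bound site.

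Aldoc encodes aldolase C, the brain form of a glycolytic enzyme. It stood at 3901 CPM (3609 to 4209) and was found in 92.6% of the astrocytes. The other listed cells held 47.6 CPM, and the highest other type was 172 CPM in glutamatergic neurons. Agt encodes angiotensinogen, the precursor of the angiotensin peptides, which the brain makes largely in astrocytes. Its level was 2212 CPM (1994 to 2447) with a UMI in 73.4% of cells, against 26.5 CPM in the other listed cells and 153 CPM in glutamatergic neurons. Slc6a11 was at 1959 CPM (1754 to 2181) and in 71.8% of cells, against 19.2 CPM elsewhere and 57.2 CPM in glutamatergic neurons. The share of microglia with a UMI, given as a background, was 4.01% for Aldoc and 2.19% for each of Agt and Slc6a11. After each cell was thinned to 500 UMIs, which kept 185 astrocytes and 542 of 549 microglia, Aldoc was found in 81.1% of astrocytes and 2.40% of microglia, Agt in 60.5% and 1.11%, and Slc6a11 in 57.8% and 1.66%. All 3 markers were found together in 99 astrocytes, 2 of the 3 in 63, only 1 in 24 and none in 2. Among the other 1811 listed cells, 2 held all 3 and 1648 held none.

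**Figure D1:**
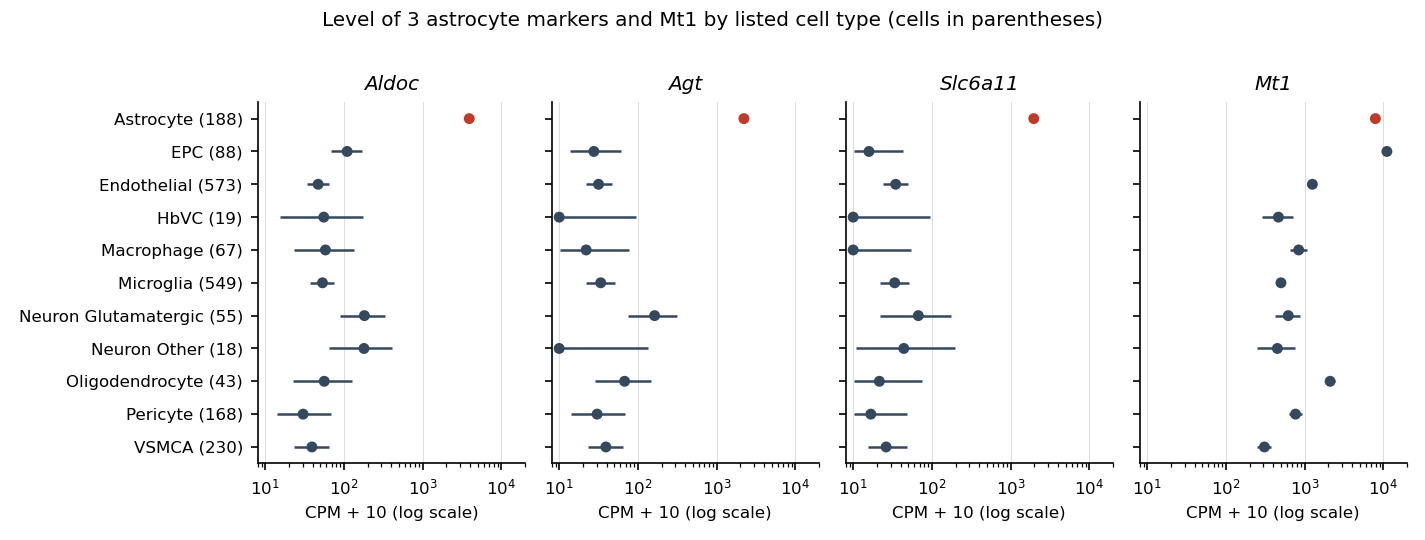
CPM + 10 on a log axis for Aldoc, Agt, Slc6a11 and Mt1 in the listed astrocytes (red) and in 10 other listed types (dark), with exact 95% Poisson intervals and the number of cells in parentheses. Aldoc, Agt and Slc6a11 lie above the interval of every other type, while Mt1 is at 7925 CPM in astrocytes and 11092 CPM in ependymocytes.

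A gene is called higher or lower here when its CPM + 10 is at least 2-fold above or below that of the comparison cells, among genes of at least 100 CPM in either. A gene below that level in astrocytes can enter only through the other cells and then cannot be called higher, and one below it in the other cells cannot be called lower, so the counts of the lists are partly set by this minimum. Against the other listed cells, 1991 genes reached that level. Of these, 453 (22.8%) were higher in astrocytes and 664 (33.4%) lower, with a median log2 ratio of -0.42. With totals that leave out mitochondrial genes, hemoglobin genes and Malat1, the median moved by 0.45 and the counts became 728 higher and 627 lower, so that 53.7% of calls were higher in place of 40.6%. No gene list below changed the direction of its median under that scaling. Of the 1362 genes at or above 100 CPM in astrocytes, 366 had their highest level there among the 11 types compared and 163 were at least 2-fold above the next type.

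The 20 genes most restricted to astrocytes, ranked by the ratio to the next highest type, were led by Hes5, a transcriptional repressor downstream of Notch, at 688 CPM (569 to 825) against 11.7 CPM in ependymocytes. Slc6a11 came next, and then Cldn10, a tight junction protein, at 835 CPM (704 to 985) against 24.1 CPM in macrophages. Ntsr2, a neurotensin receptor, was at 1371 CPM (1200.4 to 1559) and in 65.4% of cells (2.19% of microglia), against 46.2 CPM in oligodendrocytes. Etnppl, which breaks down phosphoethanolamine, was at 471 CPM against 11.7 CPM in ependymocytes. Aldoc, Acsbg1, Agt, Paqr6 and Mmd2 followed, and after them Slc1a2, Fgfr3, Sox8, Gm3764, Folh1, Ttyh1, Slc1a3, Dbx2, Gfap and Scrg1. Over the 20 genes, the ratio to the next type ran from 8.93 for Scrg1 to 32.1 for Hes5. Several of these are low and rest on few UMIs: Sox8, a transcription factor of glia, on 25 UMIs in 11.2% of cells (0.182% of microglia), Dbx2, a homeobox gene, on 24 and Folh1, a peptidase that cleaves N-acetylaspartylglutamate, on 30. In position, Hes5 lies on chromosome 4 (154960923 to 154962371), Cldn10 on chromosome 14 (118787908 to 118875489), Ntsr2 on chromosome 12 (16653382 to 16660227) and Gfap on chromosome 11 (102887336 to 102900912), in GENCODE gene models of GRCm38.

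Transporters that clear glutamate were among the genes most restricted to these cells. The list of glutamate uptake and conversion had 6 genes at the level minimum and all 6 were higher, against 22.8% over all genes. The median log2 ratio was 2.14. Of the 6, 5 reached that minimum in astrocytes only and could not be called lower. Slc1a2 (GLT-1) was at 2153 CPM (1938 to 2386) and in 73.9% of cells (2.91% of microglia), against 26.5 CPM in the other listed cells. Slc1a3 (GLAST) was at 1753 CPM (1559.8 to 1964) against 68.8 CPM. These are the glutamate transporters of the astrocyte membrane. Glul, glutamine synthetase, which turns glutamate into glutamine, was at 1759 CPM against 835 CPM, and oligodendrocytes reached 1350.5 CPM. Slc38a3, which exports glutamine, was at 194 CPM (134 to 273) against 42.3 CPM, while its relative Slc38a5 had 0 UMIs in astrocytes and 191 CPM in endothelial cells. The cystine and glutamate exchanger Slc7a11 stood at 306 CPM (228 to 401), below the 581 CPM of pericytes.

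Of 13 genes that handle GABA and glycine, 4 reached the level minimum. All 4 did so in astrocytes and not in the other listed cells, so that none could be called lower. Beside Slc6a11, Slc6a9, the glycine transporter GlyT1, which keeps glycine low around the inhibitory and NMDA synapses of the hindbrain, was at 277 CPM (203 to 368) and in 21.8% of cells (0.546% of microglia) against 12.5 CPM elsewhere. The neuronal glycine transporter Slc6a5 had 0 UMIs in astrocytes. Slc7a10 (Asc-1), which carries small neutral amino acids such as serine and glycine, was at 724 CPM (601 to 863) and in 39.9% of cells (1.46% of microglia). Enzymes of GABA and glycine breakdown were low: Abat and Amt were each at 88.2 CPM (49.4 to 146) and Gldc had 0 UMIs.

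Of 12 genes of potassium, water and acid-base balance, 7 reached the level minimum. All 7 did so in astrocytes and not in the other listed cells, so that none could be called lower. Slc4a4, the sodium bicarbonate cotransporter, was at 1206 CPM (1047 to 1383) and in 57.4% of cells (0.546% of microglia). Aqp4, the water channel of the endfeet, was at 682 CPM (564 to 819) and in 37.8% of cells (0.364% of microglia) against 194 CPM in ependymocytes, which carry it on their basal side. Kcnj10 (Kir4.1), which takes up potassium, was at 359 CPM (275 to 461), and its partner Kcnj16 (Kir5.1) at 124 CPM (76.5 to 189). Dtna, which encodes the scaffold protein dystrobrevin, was at 153 CPM against 11.5 CPM. The beta subunits of the sodium pump differed from each other. Atp1b2 was called higher, at 1565 CPM (1382 to 1765) and in 68.6% of cells (1.09% of microglia) against 120.2 CPM. Atp1b1 at 58.8 CPM and Atp1b3 at 52.9 CPM were both called lower than in the other listed cells, which held 300.1 and 129 CPM, and the call of Atp1b3 was lost under totals without mitochondrial genes, hemoglobin genes and Malat1.

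Gap junction and adhesion genes were higher for 9 of 11 and lower for none, against 22.8% and 33.4% over all genes. The median log2 ratio was 3.13. All 9 reached the level minimum in astrocytes and not in the other listed cells, so that none of them could be called lower. Neither of the 2 genes that reached it in both was called. Connexin 43, encoded by Gja1, was at 1777 CPM (1582 to 1989) and in 70.7% of cells (1.46% of microglia) against 446 CPM in ependymocytes. Connexin 30, encoded by Gjb6, was at 706 CPM (585 to 844) and in 43.1% of cells (1.46% of microglia), while connexin 26 (Gjb2) had 2 UMIs. Hepacam, an adhesion protein that binds Mlc1, was at 418 CPM (326 to 527), and Mlc1 itself at 424 CPM (331 to 533). Of adhesion molecules shared with neurons, Ncam1 was at 377 CPM, Nrcam at 141 CPM and Cdh2 at 229 CPM, each below the glutamatergic neurons. The tetraspanins Cd81 at 4689 CPM and Cd9 at 482 CPM were not called, and both were highest in microglia.

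The widest set was lipid handling, in which 18 of 19 genes were higher and 17 had their highest level in astrocytes among the types compared (median log2 ratio 2.73). Of all genes tested, 22.8% were higher and 33.4% lower. Of the 1362 genes at the minimum in astrocytes, 366 had their highest level there. Of the 18 higher lipid genes, 14 reached the level minimum in astrocytes only and could not be called lower. Apoe, the lipid carrier of the brain, was at 20973 CPM (20291 to 21673) and in 99.5% of cells (50.3% of microglia). It took 2.10% of all astrocyte UMIs, and macrophages held 29709 CPM. Clu, another apolipoprotein, was at 3518 CPM (3242 to 3812) in astrocytes and 3151 CPM in oligodendrocytes. Enzymes that make sterols were each low but in the same direction: Msmo1 was at 547 CPM (442 to 670.3) against 53.4 CPM elsewhere, Hmgcs1 at 176 CPM, Cyp51 at 124 CPM and Sqle at 112 CPM, and Insig1, which restrains the pathway, was at 500.1 CPM. Fatty acid genes included Scd2, a desaturase, at 1641 CPM (1454 to 1846), the acyl-CoA synthetases Acsl3 at 753 CPM, Acsbg1 at 406 CPM and Acsl6 at 377 CPM, and the binding protein Fabp7 at 247 CPM. Dbi, the acyl-CoA binding protein, was at 4036 CPM and not called, and ependymocytes held 23756 CPM.

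Glycolysis was mixed. Of 14 genes at the level minimum, 7 were higher, 1 was lower and 6 were neither, against 22.8% higher and 33.4% lower over all genes. The median log2 ratio was 1.11. Of the 7 higher genes, 4 reached the minimum in astrocytes only and could not be called lower. Among the 7 genes that reached it in both, 3 were higher and 1 lower. After Aldoc, Pfkm, a phosphofructokinase subunit, was at 194 CPM (134 to 273) against 12.5 CPM, and Pygb, the brain glycogen phosphorylase, at 265 CPM (193 to 354) against 27.9 CPM. Aldoa, the other aldolase of these cells, was at 618 CPM (505 to 748) against 445 CPM, a log2 ratio of 0.46. Ldhb was at 724 CPM (601 to 863), and Ldha, the form associated with lactate production, at 88.2 CPM (49.4 to 146) against 149 CPM. The glucose transporter Slc2a1 was the gene called lower, at 241 CPM (173 to 327) against 1619 CPM in endothelial cells, where it carries glucose across the blood-brain barrier. The lactate transporter Slc16a1 had 17 UMIs (58.3 to 160.1 CPM).

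In amino acid metabolism, 5 of 7 genes were higher and 1 lower, against 22.8% and 33.4% over all genes. The median log2 ratio was 3.08, and 6 of 8 were higher and 0 lower under the totals without Malat1. The 5 higher genes reached the level minimum in astrocytes only, and the lower one in the other listed cells only. Pla2g7, a secreted phospholipase placed in this list, was at 1171 CPM (1014 to 1345) and in 57.4% of cells (0.911% of microglia). Phgdh, the first enzyme of serine synthesis, was at 306 CPM (228 to 401), Prodh, which oxidizes proline, at 259 CPM, and Aldh1l1, the folate enzyme widely used as an astrocyte marker, at 188 CPM (129 to 266) in 15.4% of cells (0.364% of microglia). The gene called lower was Slc7a5, at 94.1 CPM against 594 CPM in endothelial cells. Of genes of thyroid hormone handling, Dio2, the deiodinase that activates the hormone, had 2 UMIs, and Slco1c1 was at 47.1 CPM against 657 CPM in endothelial cells. The members of that list called higher were Thrsp at 147 CPM (95.2 to 217) and Aldh1a1 at 135 CPM (85.8 to 203).

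Metallothioneins, small proteins that bind zinc and copper, were high, though not highest, in astrocytes. Mt1 was at 7925 CPM (7507 to 8359), Mt3 at 2865 CPM (2616 to 3131) and Mt2 at 2200.3 CPM (1983 to 2435), each called higher than in the other listed cells. Ependymocytes held 11092, 8644 and 3515 CPM of the same 3 genes. The zinc importer Slc39a12 was at 577 CPM (468 to 703) and in 37.8% of cells (0.546% of microglia). Iron storage and transport genes were lower: Fth1 was at 1829.7 CPM against 3875, Ftl1 at 882 against 2866, Trf at 23.5 against 227 and Cp at 41.2 against 120.2. The call of Fth1 was lost under totals without mitochondrial genes, hemoglobin genes and Malat1.

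Among secreted proteins, 9 of 12 were higher and none lower (median log2 ratio 2.66), against 22.8% and 33.4% over all genes. Of the 9, 5 reached the level minimum in astrocytes only and could not be called lower. Under totals without mitochondrial genes, hemoglobin genes and Malat1, 10 of 14 were higher and 1 lower. Sparcl1 (hevin), which astrocytes release to promote synapse formation, was at 4230.0 CPM (3926 to 4551) and in 89.9% of cells (9.29% of microglia). Its relative Sparc, which counters hevin, was at 1836 CPM (1637 to 2051), against 1614 CPM in microglia. Itih3, a component of the hyaluronan matrix, was at 1183 CPM (1025 to 1358) and in 53.7% of cells (2.55% of microglia), and Cpe, which processes neuropeptides, at 2742 CPM. Lower in level, though called higher, were Mfge8 at 494 CPM, Htra1 at 465 CPM, Timp4 at 365 CPM and Vegfa at 176 CPM (119 to 252). Several other synapse-forming factors on the list were near the limit of detection: Thbs1 and Gpc4 had 1 UMI each, Gpc6 had 4 and Chrdl1 and Thbs4 had 0. Gpc5, of the same list, was at 76.5 CPM.

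Of transmitter and peptide receptors, 8 of 9 at the level minimum were higher and 1 lower (median log2 ratio 3.75). Over all genes, 22.8% were higher and 33.4% lower. The 8 higher receptors reached the minimum in astrocytes and not in the other listed cells, so that none of them could be called lower. The 1 gene that reached it in both was the lower one. After Ntsr2, Gpr37l1, a receptor of glia, was at 1377 CPM (1206 to 1565) and in 68.6% of cells (1.82% of microglia). Ednrb, the endothelin B receptor, was at 341 CPM (259 to 441), and Gria2, an AMPA receptor subunit, at 694 CPM (575 to 831) against 1664 CPM in the other neurons. Subunits and receptors for GABA were present at lower levels, with Gabrb1 at 277 CPM, Gabrg1 at 124 CPM, Gabbr1 at 229 CPM and Gabbr2 at 106 CPM. Receptors of the arousal systems were read mostly at or near the limit: the adrenergic receptors Adra2a had 10 UMIs, Adra1a 4, Adrb1 3 and Adra1b 1, the histamine receptor Hrh1 had 10, and the serotonin receptors Htr1a and Htr2c, the muscarinic receptor Chrm3 and the neurokinin receptor Tacr1 had 0. The adenosine receptor Adora1 had 13 UMIs, or 76.5 CPM (40.7 to 131), and Adora2a had 0. The gene called lower was P2ry12, which marks microglia, at 106 CPM against 2478 CPM in that type.

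Growth factor receptors included Ptprz1, a receptor phosphatase for pleiotrophin, at 900.1 CPM (763 to 1055) and in 52.1% of cells (0.546% of microglia), Ntrk2, the BDNF receptor, at 1035 CPM (888 to 1200.2), and Fgfr3 at 894 CPM (758 to 1048). Of 9 such genes, 6 were higher and 1 lower, with a median log2 ratio of 2.00, against 22.8% higher and 33.4% lower over all genes. The lower gene was Tgfbr1, at 11.8 CPM against 828 CPM in microglia. The 6 higher genes reached the level minimum in astrocytes only and Tgfbr1 in the other listed cells only. That minimum therefore set the direction of each call. Among 19 transcription regulators of glia, 13 were higher and 1 lower (median log2 ratio 1.93), against 22.8% and 33.4% over all genes. Of the 13, 12 reached the level minimum in astrocytes only and could not be called lower. Of the 7 regulators that reached it in both, 1 was higher and 1 lower. Npas3 had 34 UMIs (139 to 279.5 CPM) against 7.70 CPM, Rorb at 147 CPM against 11.1 CPM, and Tsc22d4 at 582 CPM against 123 CPM. Against ependymocytes, 11 of 19 regulators were higher and 2 lower, beside 21.1% and 38.1% over all genes. Under totals without mitochondrial genes, hemoglobin genes and Malat1, 12 of 20 were higher and 1 lower. Sox9, at 218 CPM against 599 CPM in ependymocytes, was called lower, while Sox2 at 129 against 235 and Id4 at 229 against 405 did not reach 2-fold. Nfia, which drives astrocyte formation, was at 547 CPM (442 to 670.3) and Zbtb20 at 412 CPM, and neither differed 2-fold from the other listed cells. Id1 was the regulator called lower, at 112 CPM against 641 CPM in endothelial cells, a call that was lost under totals without mitochondrial genes, hemoglobin genes and Malat1. Among cells of at least 1000 UMIs, the log2 ratio of the receptor Fgfr1 was -0.01 and that of the regulator Tcf7l2 -0.43, where both had been called higher over all cells.

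Patterning genes were close to the limit of detection. Of the forebrain list, Lhx2, Emx1, Emx2, Dmrta2, Six3 and Sp8 had 0 UMIs, Otx1 and Rax had 1 each, and only Mlc1, which is expressed in astrocytes of all regions, reached 100 CPM. The midbrain and hindbrain list summed to 53 UMIs over 11 of its 17 genes, led by Zic1 with 10 UMIs, Irx1 with 9, and Irx3 and Meis2 with 7 each. Hox genes summed to 8 UMIs over 5 of 15 genes, Hoxa5 holding 3 of them, and no gene of these last 2 lists reached 100 CPM. In ependymocytes of the same library, the same lists summed to 381 CPM and 147 CPM, against 312 CPM and 47.1 CPM in astrocytes.

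Genes of fibrous and reactive astrocytes were mixed. Of 8 at the level minimum, 3 were higher and 4 lower, with a median log2 ratio of -1.02, against 22.8% higher and 33.4% lower over all genes. The 3 higher genes reached the level minimum in astrocytes only and could not be called lower. Of the 4 lower genes, 3 reached it in the other listed cells only and could not be called higher. Under totals without mitochondrial genes, hemoglobin genes and Malat1, 3 were higher and 2 lower (60.0% of calls higher in place of 42.9%). The higher genes were Gfap, the intermediate filament protein of fibrous astrocytes, at 629 CPM (516 to 761), S100b at 288 CPM (213 to 381) and C4b, a complement component, at 124 CPM (76.5 to 189). Vim at 129 CPM, Hspb1 at 70.6 CPM, Psmb8 at 58.8 CPM and S100a6 at 58.8 CPM were called lower, and these were highest in smooth muscle cells (Vim and Hspb1), macrophages (Psmb8) and oligodendrocytes (S100a6). Lcn2, Cxcl10, Steap4, Timp1 and Socs3 had 0 UMIs, Serpina3n had 6, Cd44 had 3 and C3 had 1. Genes named for Bergmann glia, the radial astrocytes of the cerebellum, included Itih3, Ptch1 at 394 CPM, Gria1 at 212 CPM, Fam107a at 188 CPM and Slc15a2 at 118 CPM. These 5 of the 9 genes reached the level minimum, in astrocytes and not in the other listed cells, and were called higher. Gdf10 and Hopx had 3 UMIs each and were not compared.

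At ZT12, clock transcripts in these cells were uneven. Of 9 genes at the level minimum, 4 were higher than in the other listed cells and none lower, against 22.8% and 33.4% over all genes. The median log2 ratio was 0.95. Of the 9, 6 reached that minimum in astrocytes only and could not be called lower, and 3 of these were higher. Among the 3 genes that reached it in both, 1 was higher. The whole list summed to 2377 CPM (2151 to 2620.2), the highest of the types compared. Under totals without mitochondrial genes, hemoglobin genes and Malat1, 10 of 12 were higher. The output genes Dbp at 506 CPM (405 to 625) and Bhlhe41 at 312 CPM (234 to 408) and the period gene Per3 at 371 CPM (285 to 474) took the most UMIs. Per1 was at 118 CPM (71.9 to 182) and Per2 at 70.6 CPM (36.5 to 123). Of the activators, Arntl had 2 UMIs, Clock and Npas2 had 0, and the repressor Cry1 had 4. Rorb, Per1, Nr1d1 and Per3 were the 4 called higher, and the log2 ratio of Nr1d1, at 112 CPM, was 1.13 over all cells but -0.25 among cells of at least 1000 UMIs.

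Immediate early genes were low. None of the 24 genes reached 100 CPM in astrocytes, and the 9 that entered did so through the other cells, so that none could be called higher. The 24 genes of the list summed to 93 UMIs, or 547 CPM (442 to 670.3), below every other listed type. Microglia held 5342 CPM, endothelial cells 3658 CPM and ependymocytes 1033 CPM. Fos was at 52.9 CPM (24.2 to 101) against 257 CPM in the other listed cells, Junb at 52.9 against 490.1, Jun at 64.7 against 411 and Klf2 at 64.7 against 749, while Egr1 had 1 UMI and Arc, Npas4 and Nr4a1 had 0. Heat shock and folding genes summed to 2353 CPM (2128 to 2596) against 4491 CPM, and of 14 at the level minimum none was higher and 7 (5 of 15 under totals without mitochondrial genes, hemoglobin genes and Malat1) were lower, against 33.4% lower over all genes. Of the 7, 4 were below the level minimum in astrocytes. Hspa1a had 2 UMIs, and Hsp90aa1 was at 176 CPM against 2248 CPM in ependymocytes. Of 8 glucocorticoid target genes, Mt1, Mt2 and Per1 were higher, Sgk1 at 11.8 CPM and Nfkbia at 112 CPM were lower, and Tsc22d3 (GILZ) was at 612 CPM against 587 CPM. Over all the functional lists together, 189 genes reached the level minimum, of which 116 were higher, 36 lower and 37 neither, with a median log2 ratio of 1.79 against -0.42 over all 1991 genes. Of the 116, 95 were below the level minimum in the other listed cells, and among the 60 list genes that reached it in both, 21 were higher and 11 lower, against 51 and 232 of 811 over all genes.

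**Figure D2:**
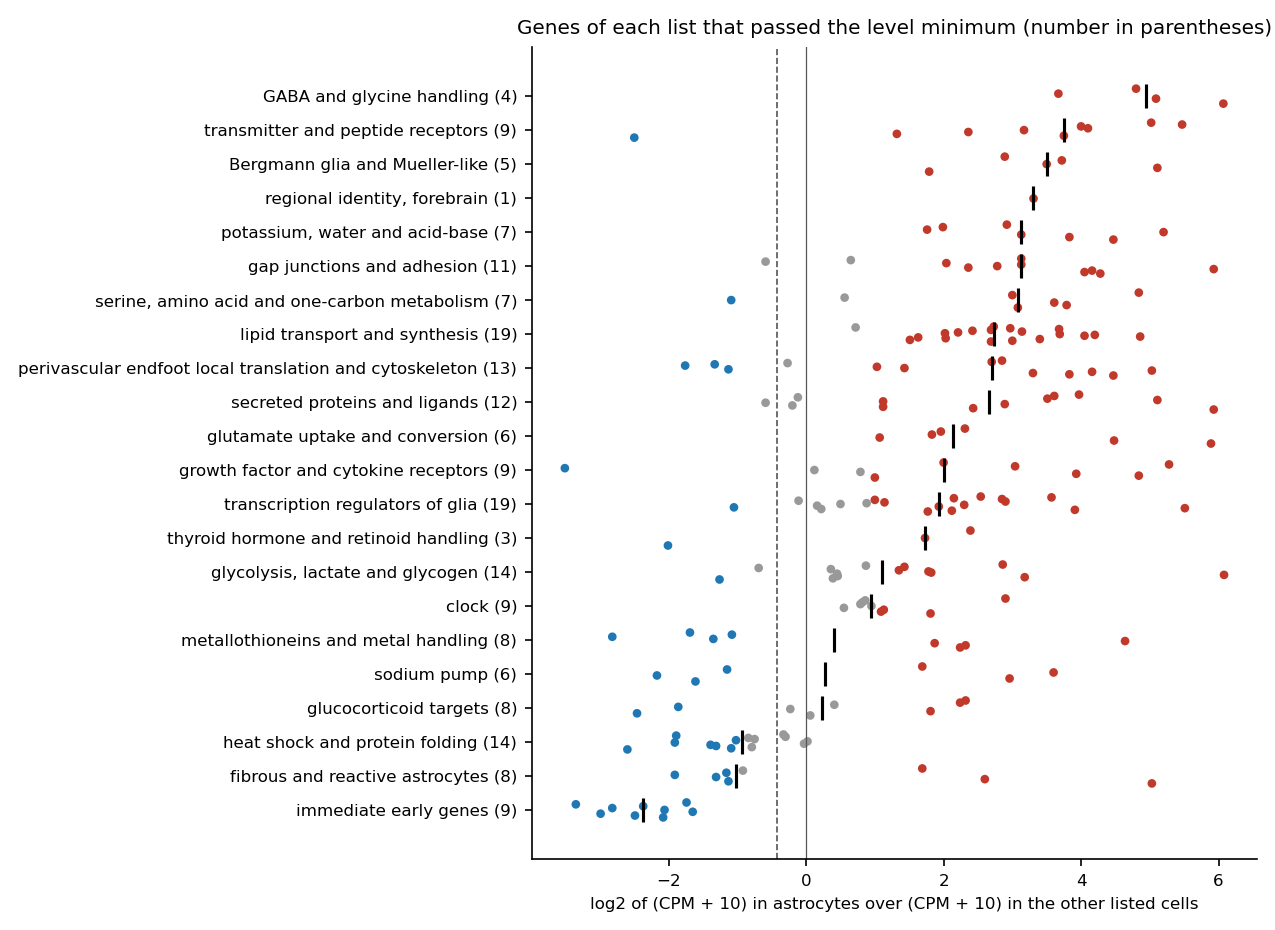
Log2 of CPM + 10 in the astrocytes over CPM + 10 in the other listed cells for each gene that reached 100 CPM in either, by list and with their number in parentheses. Red points are at least 2-fold higher, blue at least 2-fold lower and grey neither, black bars are list medians, and the dashed line is the median of all 1991 genes (-0.42). The medians run from -2.37 for immediate early genes, which entered only through the other cells, to 4.95 for GABA and glycine handling, which entered only through astrocytes.

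The long nuclear RNA Malat1 took more UMIs than any other gene, 31240 of 169977 or 18.4%. That share was near the 17.4% of pericytes and 16.3% of smooth muscle cells, and above the 7.58% of ependymocytes, 7.83% of endothelial cells and 7.25% of microglia. After Malat1, and leaving aside mitochondrial genes, Apoe, Cst3 and Mt1 held the most. Cst3, the protease inhibitor cystatin C, was at 18008 CPM (17376 to 18658) in astrocytes against 70419 CPM in microglia. Ndrg2, an astrocyte gene outside the lists, was at 2471 CPM against 134 CPM, and Ckb, the brain creatine kinase, at 3295 CPM against 449.7 CPM. Actb, the beta-actin that serves as a reference, was at 3842 CPM against 9648 CPM, and lay in 73.9% of astrocytes and 90.0% of other listed cells.

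The genes lowest in astrocytes relative to the other listed cells were highest mostly in vascular and immune types. Dcn, a proteoglycan of fibroblasts, had 0 UMIs against 2048 CPM in pericytes, and the immune genes Hpgds and Fam105a and the endothelial gene Nostrin also had 0. Tpm4, highest in endothelial cells, and Spp1, highest in glutamatergic neurons, had 1 UMI each, Car4 had 3 and Ly86 had 5. Cd74, which carries antigen-presenting molecules, had 11 UMIs, or 64.7 CPM (32.3 to 116), against 25277 CPM in macrophages, and Tmsb10 was at 88.2 CPM against 1409.7 CPM. Markers of other types were counted cell by cell. Of the 188 astrocytes, 10 held at least 3 UMIs of smooth muscle markers (the highest 77), 7 of microglial markers (27), 6 of pericyte markers (18), 5 of endothelial markers (36), 3 of ependymal markers (4) and 1 each of neuronal and oligodendrocyte precursor markers, while no cell reached 3 UMIs of macrophage or oligodendrocyte markers. In all, 26 cells did so for at least 1 class other than HbVC. Hemoglobin was wider: 83 cells held at least 3 UMIs of HbVC markers, with up to 443, and 92.0% of astrocytes held at least 1 hemoglobin UMI against 90.7% of microglia. The parts of free RNA and of droplets with more than 1 cell in these marker counts were not tested. Over all genes, subtracting each gene's lowest CPM over the types compared, taken as an estimate of free RNA, gave 462 genes higher and 740 lower than in the other listed cells, and leaving out the highest Scrublet doublet scores gave 491 and 724. Without the 26 cells, Aldoc, Agt and Slc6a11 stayed within their counting intervals.

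Ependymocytes, the ciliated cells that line the ventricles and share a radial glial origin with astrocytes, were compared with the astrocytes as another glial type, with 88 cells and 170400 UMIs. Of 2115 genes at the level minimum, 447 (21.1%) were higher in astrocytes and 805 (38.1%) lower, with a median log2 ratio of -0.52. Under totals without mitochondrial genes, hemoglobin genes and Malat1 the counts were 765 and 723, the median moved by 0.48, and 51.4% of calls were higher in place of 35.7%. Among the genes with the highest ratios over ependymocytes were Slc6a11, Agt, Itih3, Gria2, Ntm, Ntsr2, Bcan, Acsbg1 and Cldn10. Gria2 and Acsbg1 had 0 UMIs in ependymocytes. Ntm, an adhesion protein of the neuronal and glial surface, was at 1377 CPM (1206 to 1565) against 11.7 CPM, and Bcan, the matrix proteoglycan brevican, at 1012 CPM (866 to 1175) against 11.7 CPM. The lowest were genes of motile cilia or of unknown role, among them Rsph1, a radial spoke protein, with 1 UMI in astrocytes against 1367 CPM, Ccdc153 with 4 against 2054 CPM and Dynlrb2, a dynein chain, with 3 against 1608 CPM. Of the functional lists, glutamate handling was higher for 6 of 6 genes against ependymocytes, GABA and glycine handling for 4 of 4, secreted proteins for 12 of 13 and receptors for 8 of 9. In every contrast of a list with ependymocytes, a gene below the level minimum in ependymocytes entered through astrocytes only and could not be called lower. Slc6a11 at 5.87, Agt at 17.6 and Slc1a2 at 88.0 CPM in ependymocytes were such genes. The reverse held for a gene below the minimum in astrocytes. How many genes of each list entered so was not counted. Lipid handling was higher for 12 of 19 and lower for Dbi, and the metallothionein list was higher only for Slc39a12 and lower for Mt3 and Fth1. Heat shock and folding genes were higher for none and lower for 9 of 13, and under totals without mitochondrial genes, hemoglobin genes and Malat1 they were higher for 1 and lower for 8 of 17.

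Within the 188 cells, the spread of a gene was measured as its variance over the variance that Poisson counting at each cell's depth would give, for the 335 genes with at least 50 UMIs. The median ratio was 1.26, with 143 genes under 1.2 and 35 at 2 or more. Malat1 had the highest ratio, 82.9, followed by the hemoglobin genes Hba-a1 at 71.8, Hba-a2 at 47.4 and Hbb-bs at 20.5 and the mitochondrial genes mt-Atp6 at 19.5, mt-Co3 at 12.2, mt-Cytb at 11.2 and mt-Co1 at 9.59. Cst3 at 8.82 and Apoe at 8.21 came next. For Hba-a1, 72.0% of the UMIs lay in 5 cells. Among genes restricted to the type, Hes5 had a ratio of 2.40, Itih3 2.31, Aldoc 2.15, Slc1a2 1.97, Agt 1.96, Slc6a11 1.92, Gja1 1.62, Aqp4 1.37, Ntsr2 1.27 and Ptprz1 1.16, all above the median over the 335 genes but that of Ptprz1. For the same relative spread, the variance ratio rises with the UMIs that a gene holds per cell. Aldoc held 663 UMIs, Agt 376 and Slc6a11 333, above the minimum of 50. The part of level in these ratios was not tested. Among cells of at least 1000 UMIs, which are deeper, 58 of 125 genes had a ratio of 2 or more. Without astrocytes that carry markers of any other class, 21 of 87 did. The 188 cells are from 1 library and 1 pool of mice, so this spread says nothing of the spread between animals.

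Malat1 and mitochondrial transcripts were inversely related from cell to cell. The Malat1 share of a cell ran from 0 to 58.0% (median 17.5, quartiles 8.13 and 27.9), with 34 cells under 5% and 41 at 30% or more. Mitochondrial genes took 3.00 to 53.8% of the UMIs of a cell, and 30 cells were at 20% or more. In the cells at or below the lower quartile of the Malat1 share the median mitochondrial share was 19.2%, and in those at or above the upper quartile it was 6.35%. Across the 188 cells, Pearson's r of the 2 shares was -0.48, a description of cells that share a library and whose shares are parts of the same total. Scaled to each cell's total, the genes most correlated with Malat1 were Gria2 (r = 0.40), Ntm (0.33) and F3 (0.22). For mt-Atp6 they were mt-Cytb (0.85), mt-Co3 (0.78) and mt-Nd1 (0.77), and for Apoe they were Cst3 (0.45), Clu (0.37) and Mt1 (0.34). Among pairs of genes that were higher in astrocytes, Agt with Slc1a2 gave 0.35, Slc6a11 with Kcnj10 0.27, Mt1 with Mt2 0.35, Gja1 with Gjb6 0.08 and Slc1a2 with Slc1a3 0.05.

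Gfap was read in few cells. Its 107 UMIs lay in 26 cells, or 13.8%, where Poisson counting at the same depths would give 41.8%, and its variance ratio was 6.11. The highest cell held 24 UMIs, the 5 highest held 63.6% of all Gfap UMIs, and 7 cells with at least 5 UMIs held 79. Those 7 cells ranged from 696 to 2108 UMIs in total. Of the 26 cells, 24 lay in the cluster that holds most of the astrocytes, and 8 held at least 3 UMIs of the markers of another type other than HbVC. Their median depth was 1089.5 UMIs against 758 in the cells without Gfap, and the part of that depth in the share was not tested. Agt was found in 20 of the 26 and Slc6a11 in 18. Itm2a, an endothelial gene, was also concentrated, with a ratio of 4.08 and 56.5% of 69 UMIs in 5 cells, as were Crip1 of smooth muscle (3.45, 48.0%) and Ctss of microglia (2.83, 44.9%). Hes5 had a ratio of 2.40 and Itih3 of 2.31.

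**Figure D3:**
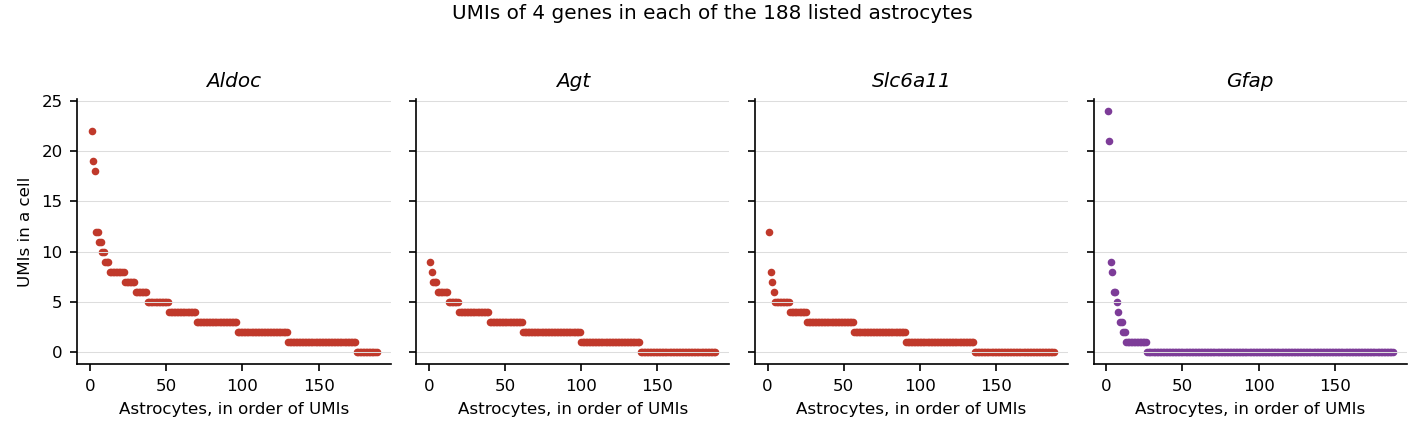
UMIs of Aldoc, Agt, Slc6a11 and Gfap in each of the 188 listed astrocytes, 1 point per cell, ordered from the highest to the lowest cell for each gene. Aldoc is read in 92.6% of the cells and up to 22 UMIs, whereas Gfap is read in 26 cells and up to 24 UMIs.

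**Figure D4:**
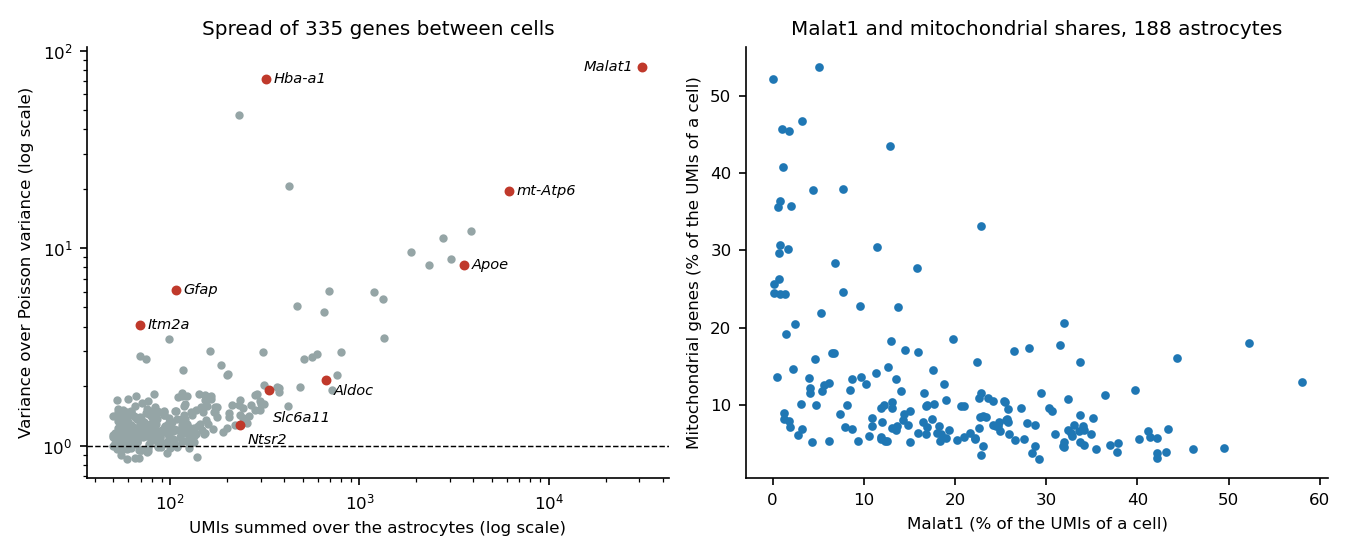
Left, variance over Poisson variance against summed UMIs for 335 genes in the listed astrocytes, both axes on log scales, with Poisson counting as the dashed line and named genes in red; Malat1 is at 82.9, Gfap at 6.11 and Ntsr2 at 1.27. Right, the share of mitochondrial UMIs against the share of Malat1 UMIs in each of the 188 cells, where the median mitochondrial share is 19.2% at or below the lower quartile of Malat1 and 6.35% at or above the upper quartile.

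The clustering of all cells let the listed astrocytes be set beside other astrocyte-like cells. The brainstem NS library held 335 astrocyte-like cells, of which 184 are listed as astrocytes, 4 are listed as another type and 147 are not on the list as it is held here. Between the 188 listed cells and those 147, 92 of 1570 genes differed at least 2-fold (5.86%), a measure of how far 2 sets of cells of 1 library differ at this depth. Agt was at 2212 CPM in the listed cells and 2189 CPM in those not on the list, Slc6a11 at 1959 and 1857, Aldoc at 3901 and 3997, and Gfap at 629 and 543. Against the libraries not assigned here, with 166 to 1335 astrocyte-like cells each, the share of genes that differed at least 2-fold was 5.19% for library 8 and 6.64% for library 9, 17.2% for each of libraries 4 and 5, 19.8% for library 1, 21.1% for library 2 and 19.2% for library 3. Library 6 held 20 astrocyte-like cells and was not compared. Most astrocyte-like cells of libraries 1, 2 and 3 lay in the cluster led by Htra1 (1022, 1218 and 876 cells), and most of the others in the cluster that holds the listed astrocytes. These clusters were built from the same genes, so the levels by library are descriptions.

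A gene of the lists was counted as different from a library only where the listed cells and the 147 others of their library were both at least 2-fold above it or both at least 2-fold below it. Of 198 genes of the lists at the level minimum in any library, 120 differed in this sense from none of the 7 compared libraries. Aldoc, Slc1a2 and Apoe were among them. Agt was low in libraries 1, 2 and 3, which held 65.4, 60.8 and 18.2 CPM, against 2212 CPM in the listed cells, 1878 and 3024 CPM in libraries 4 and 5 and 2675 and 1312 CPM in libraries 8 and 9. Itih3 showed the same split, with 71.7, 69.7 and 63.8 CPM against 1183 CPM in the listed cells and 774 to 2007 CPM in libraries 4, 5, 8 and 9. Slc6a11 was at 257, 231 and 216 CPM in libraries 1, 2 and 3, and at 1277, 1321, 2035 and 1287 CPM in libraries 4, 5, 8 and 9, where library 8 overlaps the interval of the listed cells. Slc6a9 was at 16.9, 12.5 and 7.81 CPM in the first 3 libraries against 277 CPM. In the other direction, Mfge8 was at 1739.7, 1654 and 1788 CPM there against 494 CPM, and Htra1 at 1286, 1897 and 1316 CPM against 465 CPM. Lhx2, a forebrain regulator, had 0 UMIs in the listed cells, in the 147 others of the library and in libraries 8 and 9, 9.53 CPM in library 4 and 52.1 CPM in library 5, and 113 to 193 CPM in libraries 1, 2 and 3. Sparc was at 1836 CPM in the listed cells, with 71.7 to 204 CPM in libraries 1, 2 and 3 and 1673 to 4588 CPM in libraries 4, 5, 8 and 9.

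Few genes of the lists set the listed cells apart from libraries 8 and 9. By the same rule, 3 genes were at least 2-fold higher than in library 8 and 0 lower, and against library 9, 3 were higher and 2 lower. Dbp, the clock output gene, was at 506 CPM (405 to 625) in the listed cells and 470.3 CPM (357 to 608) in the others of their library, against 164 CPM (125 to 211) in library 8 and 152 CPM (119 to 191) in library 9. The unassigned libraries 1, 3 and 4 held 470.3, 339.7 and 391 CPM, and libraries 2 and 5 held 195 and 165 CPM. P2ry12, the microglial gene, was at 106 CPM in the listed cells, and 56.8 CPM in the others of the library, both of them at least 2-fold above libraries 1, 2, 4, 8 and 9. Mt1 was lowest in the listed cells, at 7925 CPM against 8571 CPM in the others of their library and 9940.3 to 22240.5 CPM in libraries 1, 2, 3, 4, 5, 8 and 9. The median depth of the astrocyte-like cells ran from 368 UMIs in library 2 to 889 in library 9, and its part in these differences was not tested.

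**Figure D5:**
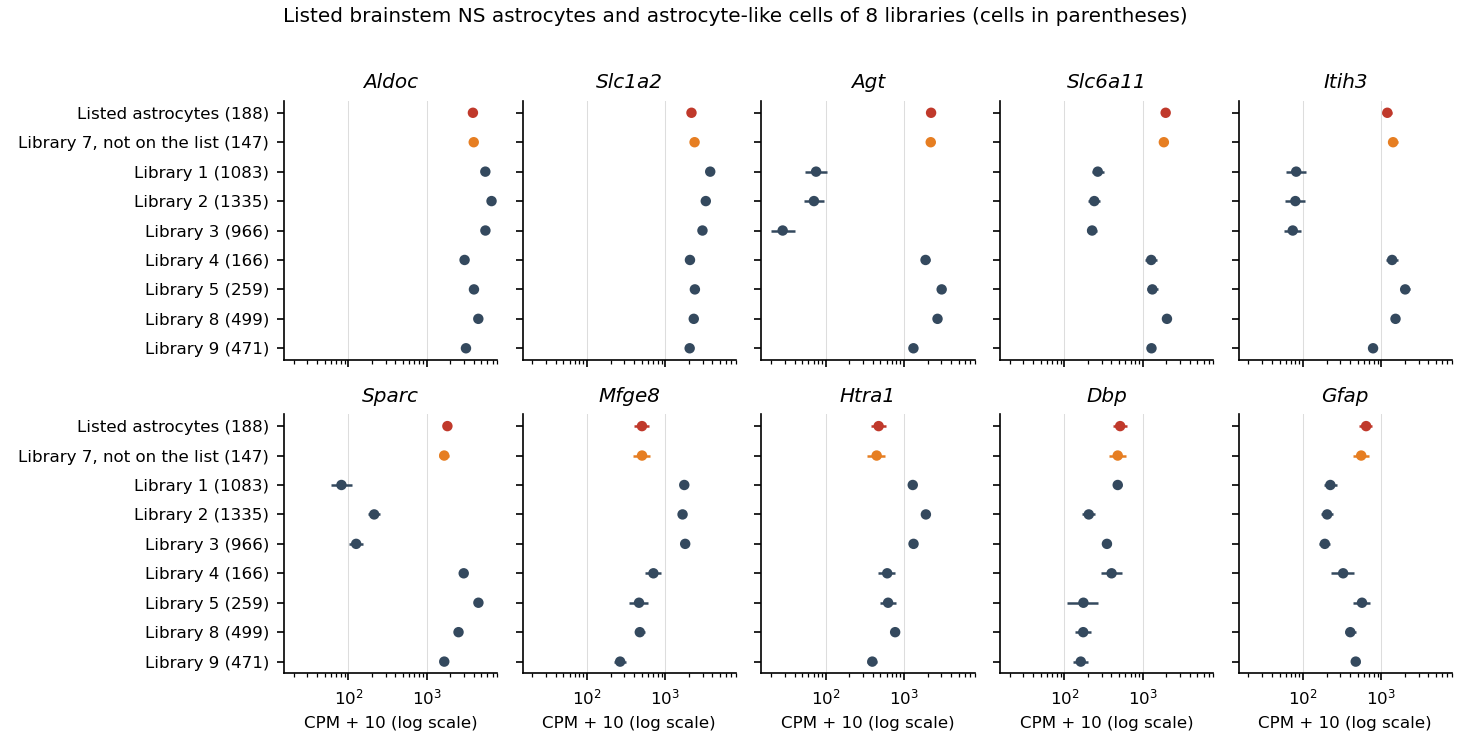
CPM + 10 on a log axis for 10 genes in the 188 listed astrocytes (red), the 147 astrocyte-like cells of the same library outside the list (orange) and the astrocyte-like cells of 7 unassigned libraries (dark), with exact 95% Poisson intervals. The listed and unlisted cells of the library lie close together for every gene shown, and Agt, Itih3, Slc6a11 and Sparc are low in libraries 1, 2 and 3.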

How the data were processed

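Single cells of 9 libraries, 1 for each region and sleep group, were measured on 10x Chromium. Per the labels, the authors aligned reads to GRCm38 with Cell Ranger 2.2.0 and deposited a table of filtered, whole-number UMI counts of 18634 genes, with no normalization. The annotation is not given in the sources used here. The brainstem NS library was identified because it holds all 1999 listed barcodes, against 5 to 13 in the others. The list is held only in part, so no overlap was tested. Counts were summed per type and scaled to CPM, and 10 CPM was added before each ratio. Depth per type sets the precision, and intervals cover counting error only.

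Cells were clustered on 2000 variable genes, 13 principal components and a graph of shared neighbours with 20 neighbours per cell. The Leiden method in leidenalg 0.10.2 at resolution 1 gave 28 clusters. Scrublet was run in scanpy 1.11.5. It called 44 of 3731 cells of the library (1.18%), 7 of them listed astrocytes, and from 0 to 1.93% of cells over all libraries. All cells were kept, and the highest scores were left out as an alternative. How many doublets the calls miss was not tested. Intervals were computed with scipy 1.17.1 in Python 3.11.15. The fold calls between 2 groups, the variance ratio, the Poisson intervals and the thinning were tested on simulated counts. Other calculations were not.

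The members and gene lists were chosen with earlier results of these data known. The text names list genes, the 20 genes most restricted to astrocytes, the 10 lowest, the 10 most variable with their 3 most correlated genes, and the 10 highest and lowest against ependymocytes. Ndrg2, Ckb, Actb, Itm2a, Crip1, Ctss and the other pairs of correlated genes were named after their values were seen. Alternatives changed the cells kept, totals, weighting, free RNA, cell definition, doublets, pseudocount, level minimum and fold. Some members of the lists are not reported here.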

Additional observations from a re-analysis of the deposited data

How the results depend on the processing

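No paired analysis was possible because each group is 1 library, and no replicate could be left out. Over 12 alternatives, 2268 log2 ratios of the 189 list genes were recomputed and 3 of them turned, all among the cells of at least 1000 UMIs: Fgfr1 was at -0.01, Tcf7l2 at -0.43 and Nr1d1 at -0.25. The cause was not tested. In those 52 astrocytes Agt was at 1651 CPM and Slc6a11 at 1584 CPM, and 58 of 125 genes had a variance ratio of at least 2 against 35 of 335 over all cells. That ratio rises with the UMIs per cell, and the part of depth in this difference was not tested. Among the 37 astrocyte-like cells of the library outside the list with at least 1000 UMIs, Agt was at 1602 CPM. Totals without mitochondrial and hemoglobin genes, a smaller denominator, gave Aldoc 4466, Agt 2533 and Slc6a11 2243 CPM. Also leaving out Malat1, an alternative chosen after seeing the data, gave 5656, 3208 and 2841 CPM, 728 genes higher than in the other listed cells and 765 higher than in ependymocytes. Totals without mitochondrial, hemoglobin and pituitary hormone genes put Agt at 2549 CPM in the astrocyte-like cells outside the list. Without the highest Scrublet scores Aldoc was at 4254 CPM. Without astrocytes that carry markers of any other class Agt was at 2526 CPM and 21 of 87 genes had a variance ratio of at least 2. With a minimum of 50 CPM, 819 genes were higher and 1029 lower than in the other listed cells, and 870 and 1362 against ependymocytes. At a minimum of 300 CPM the counts were 128, 258, 125 and 293, and at 4-fold they were 274, 251, 234 and 354. Leaving out cells with shared barcodes, also chosen after seeing the data, moved none of the 189 ratios beyond its counting interval, and leaving out the 26 cells with markers of another class moved 9. The ratios moved for 68 of the 189 genes with the other types counted equally, 63 among cells of at least 1000 UMIs, 53 with a pseudocount of 1 CPM, 49 under totals without Malat1 and 46 without cells that carry markers of any other class. The variance ratio of Gfap ran from 4.80 to 9.27. Depth limits what low genes can show: 0 UMIs allow up to 17.6 CPM.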

Other observations

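Genes of the perivascular endfoot, the astrocyte process that wraps blood vessels, summed to 10678 CPM in the listed astrocytes against 11151 CPM in the other listed cells. Of 13 such genes at the level minimum, 9 were higher and 3 lower, against 22.8% and 33.4% over all genes. The median log2 ratio was 2.70. Of the 9, 8 reached the minimum in astrocytes only and could not be called lower. Of the 4 genes that reached it in both, 1 was higher and 2 lower. Beside Aqp4, Kcnj10, Mlc1, Hepacam, Gfap and Ckb, the higher genes were Dag1, which encodes dystroglycan, Dmd, which encodes dystrophin, and Tubb2b, a tubulin. Utrn, which encodes the dystrophin relative utrophin, was lower, as were Vim and Actb. The call of Vim was lost under totals without mitochondrial genes, hemoglobin genes and Malat1. Against ependymocytes, 7 of 13 were higher and 3 lower, with a median log2 ratio of 1.08, beside 21.1% and 38.1% over all genes.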
